A study of Mus musculus with 70 samples.

Results

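The proteasome is the ATP-driven protease that degrades ubiquitin-tagged proteins in the cytosol and nucleus. The 34 genes described here encode its constitutive subunits and a few of its assembly chaperones, and they were taken by symbol from the 21859 genes of the deposited table: Psma1 to Psma7, Psmb1 to Psmb7, Psmc1 to Psmc6 and every Psmd gene with a number. Psma and Psmb genes encode the alpha and beta rings of the 20S core particle (7 genes each), and 3 of the beta subunits, Psmb5, Psmb6 and Psmb7, carry the proteolytic sites. Psmc genes encode the 6 ATPases at the base of the 19S regulatory particle, which unfold substrates and feed them into the core. Of the Psmd genes, Psmd1, Psmd2 and Psmd4 encode non-ATPase subunits of the base, with Psmd4 as a ubiquitin receptor. Another 8 encode the 19S lid (Psmd3, Psmd6, Psmd7, Psmd8, Psmd11, Psmd12, Psmd13 and Psmd14), and Psmd14 is the deubiquitinase that removes the ubiquitin chain. The remaining 3, Psmd5, Psmd9 and Psmd10, are chaperones of base assembly that leave the particle before it is complete, so they go against the name of a constitutive subunit.

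When proteasome activity drops, mammalian cells raise many subunit genes together through the transcription factor encoded by Nfe2l1, which is freed from the endoplasmic reticulum with the help of the products of Ngly1 and Ddi2. Nfe2l2, better known as NRF2, acts on some of the same genes. Inflammatory signals replace the catalytic beta subunits with those of the immunoproteasome, encoded by Psmb8, Psmb9 and Psmb10. Changed proteasome activity has long been described in senescent cells.

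The table covers 70 bulk mRNA libraries from mouse cells in 26 groups, of which 18 have 3 libraries and 8 have 2. All mice and embryos were C57BL/6 and male by their labels. The embryos were of E13.5, and the ages of the mice are not given in the sources used here. Doxycycline switched on a constitutively active MEK1 (caMEK1), which drives ERK and oncogene-induced senescence, or a constitutively active MKK6 (caMKK6), the p38-activating kinase used here for stress-induced senescence. In the chimeric animals mCherry marked the cells that carry the kinase and GFP the cells around them, and control animals carried the colours with no active kinase. Sorted hepatocytes and colonic epithelial cells of each genotype were sequenced as GFP cells without doxycycline (3 animals a group) and as GFP and mCherry cells of the same animals after 7 days of doxycycline (2 or 3 animals a group). Doxycycline was given in the water, at 0.2 mg/mL to caMEK1 animals but at 2 mg/mL to control animals and those with caMKK6, so kinase and dose cannot be told apart. Mouse embryonic fibroblasts (MEFs), of both kinase genotypes, were sequenced after 2, 4 and 7 days in 2 µg/mL doxycycline and without it at day 2 only, so at days 4 and 7 the effect of doxycycline and that of longer culture cannot be told apart. No MEFs without a kinase gene are in the table, and the promoter that drives each kinase is not given in the sources used here.

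Depth lay between 6671204 and 17763531 reads a library, and 33 of the 34 genes had from 36 reads (Psmd10) to 11065 reads (Psmd2) in a library. For Psmc2 neither reads nor coordinates are given, since the exon annotation used here does not hold its identifier. All 34 passed the filter on low values in each tissue. Hepatocyte markers summed to at least 24903 FPKM in liver libraries and epithelial markers to at least 3654 FPKM in colon libraries, against at most 75.4 and 145 FPKM of those lists in the other sorted tissue. Macrophage markers reached 246 FPKM in 1 liver GFP library and 20.3 FPKM in 1 colon GFP library. The caMKK6 MEF group also held 5 libraries that list the MEK1 transgene at 10.96 to 16.5 FPKM. In mCherry cells on doxycycline the kinase transgene was listed at 5.55 to 14.1 FPKM in caMEK1 liver, at 216 and 1211 FPKM in caMKK6 liver, at 235 and 288 FPKM in caMEK1 colon and at 1214 to 2648 FPKM in caMKK6 colon. In GFP cells of the same animals MEK1 was at most 0.238 FPKM in liver and 28.7 FPKM in colon. The GFP cells of control livers listed mCherry at 678 and 749.6 FPKM (14.3% and 18.8% of the mCherry cells of the same animals) and EGFP at 70.2 and 72.1 FPKM. In control colons mCherry in GFP cells was at 0.115% and 0.102%. In colon mCherry cells EGFP was listed at 42.6 to 114 FPKM in controls, 3.36 to 179 FPKM with caMKK6 and 13.1 to 17.8 FPKM with caMEK1. The GFP cells of the same animals listed it at 577 to 711, 619 to 912 and 619.9 to 815 FPKM in that order.

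Promoter sequences are shown for 5 of the genes on which the results below turn: Psmd14 and Psmc4, which rose most or nearly most in colon cells with caMKK6, the catalytic Psmb6, the lid gene Psmd11, which like Psmb6 rose in caMEK1 MEFs and fell in caMEK1 liver, and the lid gene Psmd8, which rose most in liver. They are the 250 bases before the RefSeq start of each gene in GRCm38.p6, 5′ to 3′ on the gene's strand. Capitals mark a CCAAT box (CCAAT), an ETS core (CCGGAAG), the palindrome of nuclear respiratory factor 1 or an antioxidant response element core (TGACNNNGC) on either strand.
Psmd14 (chr2:61711444-61711693, plus strand): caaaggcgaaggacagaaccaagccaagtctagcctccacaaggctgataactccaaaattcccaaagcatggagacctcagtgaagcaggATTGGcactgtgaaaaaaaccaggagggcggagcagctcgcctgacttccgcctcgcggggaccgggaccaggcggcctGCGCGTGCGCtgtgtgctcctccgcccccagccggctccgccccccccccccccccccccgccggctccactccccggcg
Psmc4 (chr7:28050093-28050342, minus strand): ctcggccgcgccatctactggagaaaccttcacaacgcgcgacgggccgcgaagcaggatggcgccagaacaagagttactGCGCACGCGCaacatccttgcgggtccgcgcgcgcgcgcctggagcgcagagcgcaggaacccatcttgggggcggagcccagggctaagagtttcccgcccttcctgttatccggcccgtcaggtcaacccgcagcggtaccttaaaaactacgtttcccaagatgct
Psmb6 (chr11:70525107-70525356, plus strand): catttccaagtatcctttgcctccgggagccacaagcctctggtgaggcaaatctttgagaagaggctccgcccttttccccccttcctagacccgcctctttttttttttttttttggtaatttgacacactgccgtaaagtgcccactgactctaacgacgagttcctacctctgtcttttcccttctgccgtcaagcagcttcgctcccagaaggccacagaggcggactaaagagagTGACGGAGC
Psmd11 (chr11:80428365-80428614, plus strand): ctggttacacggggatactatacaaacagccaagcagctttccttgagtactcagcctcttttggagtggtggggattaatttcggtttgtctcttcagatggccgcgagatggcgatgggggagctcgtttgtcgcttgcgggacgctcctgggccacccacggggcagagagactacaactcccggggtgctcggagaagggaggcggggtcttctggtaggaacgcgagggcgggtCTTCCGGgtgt
Psmd8 (chr7:29180674-29180923, minus strand): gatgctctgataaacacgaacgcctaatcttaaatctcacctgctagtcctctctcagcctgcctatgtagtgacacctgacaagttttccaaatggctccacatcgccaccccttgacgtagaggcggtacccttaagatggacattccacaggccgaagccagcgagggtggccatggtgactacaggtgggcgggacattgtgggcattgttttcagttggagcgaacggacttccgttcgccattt

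Of the 34 genes, 28 had a promoter in the RefSeq table. The ETS core was in 9 of these 28 (32.1%) against 7.83% of 27025 genes, and the nuclear respiratory factor 1 palindrome in 6 (21.4%, Psma2, Psma3, Psma4, Psmc4, Psmc5 and Psmd14) against 4.23%. The antioxidant response element core, a site of the Nfe2l2 protein, was in 5 (17.9%, Psmb5, Psmb6, Psmc6, Psmd9 and Psmd12) against 11.5%, and the CCAAT box in 11 (39.3%) against 37.5%. An AP-1 site (TGANTCA), which can overlap the antioxidant letters, was in 1 (Psmd9, 3.57% against 7.82%), a heat shock core (GAANNTTC) in 1 (Psmb5, 3.57% against 7.73%), and a cyclic AMP response element (TGACGTCA) in 0 (0% against 1.77%). The Psmd8 window held none of these 7 motifs. A match is a description of the letters, and no match says only that they are not in this window.

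Levels are given as FPKM, reads scaled to exon length and library depth, so that they can be compared between genes. Before induction the 34 genes spanned a wide range in every tissue. In MEFs without doxycycline (6 libraries) mean levels ran from 6.45 ± 0.503 FPKM for Psmd9 to 153 ± 20.1 FPKM for Psma6 (SD, n = 6), a 23.7-fold range with a median of 58.9 FPKM. In untreated liver (9 libraries) they ran from 3.25 ± 0.53 FPKM for Psmd9 to 55.2 ± 5.8 FPKM for Psma6 (SD, n = 9), with a median of 18.6 FPKM. In untreated colon (9 libraries) they ran from 2.98 ± 0.284 FPKM for Psmd9 to 86.2 ± 8.88 FPKM for Psma6 (SD, n = 9), with a median of 27.9 FPKM. Psma6, an alpha-ring subunit, was thus the highest and the chaperone gene Psmd9 the lowest in each tissue. Psmd5, another base chaperone, was the second lowest in each, and Psmd2, a scaffold of the base, was the second highest in MEFs and the third in liver.

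All 34 genes were listed higher in untreated MEFs than in untreated liver, by a median ratio of 3.04 (1.01 to 5.34), and higher than in untreated colon, by 2.29 (1.15 to 3.35). Between colon and liver the median ratio was 1.49 (0.879 to 2.96), with 31 of 34 genes higher in colon. Psmd11 had the smallest ratio of MEF to either tissue. These levels were set side by side with no test, since cultured and sorted cells differ in preparation. Summed over the 34 genes, the genes took between 0.808% and 1.01% of all FPKM in MEFs, while colon libraries lay at 0.317% to 0.639% and liver libraries at 0.116% to 0.277%.

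**Figure D1:**
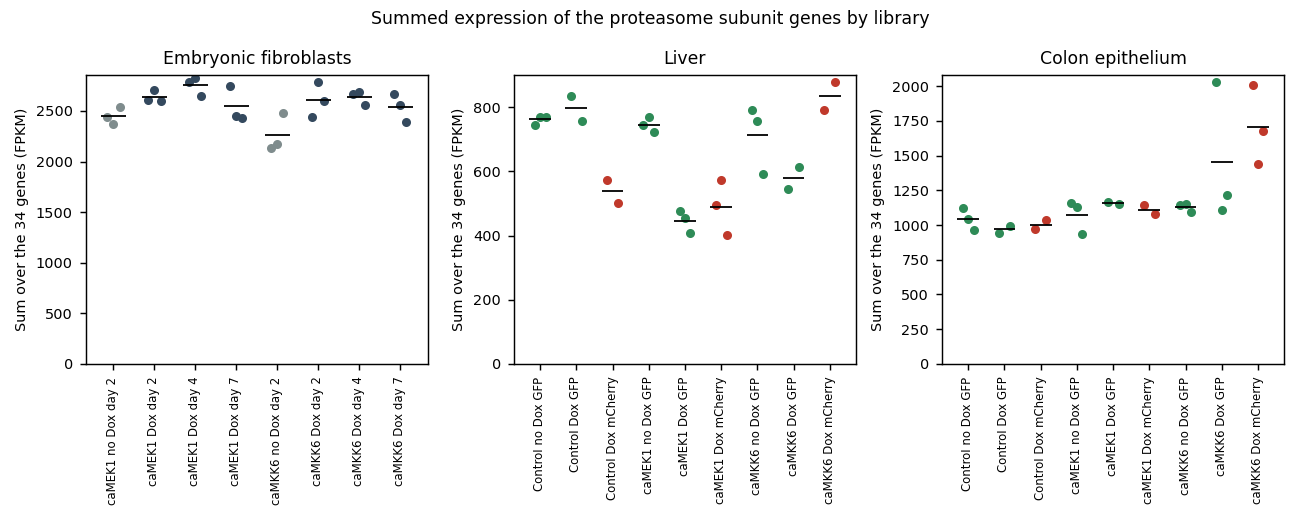
Summed FPKM of the 34 proteasome genes in each library (points) with group means (lines), in MEFs, liver and colon, each axis starting at 0. MEF libraries carry the highest sums, the 3 colon caMKK6 mCherry libraries lie at 1441 to 2010 FPKM, and 1 colon caMKK6 GFP library (2030 FPKM) lies with them.

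The 20 rises in colon epithelium with active MKK6 were the highest count of rises among the 25 comparisons as fitted, though with a common median MEF caMKK6 days 2 and 4 gave 21 and 22, and with a replicate block the liver caMKK6 colours and this comparison both gave 21. Of the 34 genes, 20 rose and 0 fell in caMKK6 mCherry cells against control mCherry cells on doxycycline (limma, Benjamini-Hochberg adjusted p below 0.05 over 11542 genes), where 11.1% of all genes rose and 9.7% fell. Their median log2 fold change was 0.80, against -0.06 over all genes tested. Fold changes are on the log2(FPKM + 1) scale here and below. Summed over the 34 genes, the 3 caMKK6 mCherry libraries held 2010, 1441 and 1676 FPKM and the 2 control mCherry libraries 970.5 and 1035 FPKM. In 29 of the 34 genes every caMKK6 mCherry library lay above both control libraries, as in 22.7% of all genes. Leaving out control mCherry replicate 1 left 9 genes called and leaving out caMKK6 mCherry replicate 1 left 13, each of them higher. Against untreated caMKK6 GFP cells in place of control mCherry cells, 18 rose (10.2% of all genes). In bulk libraries more cells of a type and more RNA per cell cannot be told apart.

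The 19S particle made up most of these calls. Of the 17 19S genes 15 rose, with a median log2 fold change of 0.90: 5 of the 6 ATPases, all 3 base non-ATPases and 7 of the 8 lid genes. Of the 14 core genes 5 rose, with a median of 0.59: Psma5 of the alpha ring and Psmb2, Psmb3, Psmb4 and Psmb7 of the beta ring. None of the 3 base chaperones passed the test. Whether the 2 particles differ was not tested, since genes are not replicates. Per library, summed 19S over summed 20S FPKM was 1.19 ± 0.0685 (SD, n = 3) in caMKK6 mCherry cells, with a mean of 1.01 in control mCherry cells. In colon caMEK1 mCherry cells this ratio was 1.06 and 1.21, and the higher of these values lay within the range of the caMKK6 mCherry libraries. A higher ratio was thus not particular to caMKK6 cells.

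Psmd14, the deubiquitinase of the lid (chr2:61711694-61800376, plus strand), stood at 63.0, 41.7 and 66.7 FPKM in caMKK6 mCherry cells and at 23.7 and 25.5 FPKM in control mCherry cells. Its groups did not overlap, and it rose by a log2 fold change of 1.16 ± 0.27 (SE, adjusted p = 0.0052 in limma). Its promoter, printed above, holds a CCAAT box and the nuclear respiratory factor 1 palindrome. Psmb3, a beta-ring subunit with no proteolytic site (chr11:97703399-97713500, plus strand), stood at 63.9, 40.1 and 37.9 FPKM against 18.5 and 22.0 FPKM. It rose by 1.15 ± 0.32 (SE, adjusted p = 0.015 in limma), again with no overlap. Psmc4, a base ATPase (chr7:28041707-28050101, minus strand), stood at 90.2, 63.5 and 67.5 FPKM against 33.3 and 33.6 FPKM. The 2 control libraries were nearly equal and far below each caMKK6 library, and the rise was 1.10 ± 0.22 (SE, adjusted p = 0.0021 in limma). The other ATPases that rose were Psmc1, Psmc2, Psmc3 and Psmc5 (0.85 to 1.00), while Psmc6 had a log2 fold change of -0.06.

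The 3 catalytic subunits did not give the same result. Psmb7 (trypsin-like activity) stood at 46.5, 35.1 and 36.3 FPKM in caMKK6 mCherry cells and 21 and 24 FPKM in control mCherry cells, and rose by 0.77 (adjusted p = 0.018 in limma). Psmb5 (chymotrypsin-like activity) stood at 31.9, 21.3 and 20.1 FPKM against 14.3 and 13.2 FPKM, without overlap, and missed the threshold (0.76, adjusted p = 0.059 in limma). Psmb6 (caspase-like activity) stood at 69.9, 45.5 and 54.4 FPKM against 38.4 and 40.2 FPKM, also without overlap and also short of the threshold (0.49, adjusted p = 0.13 in limma). Among the base chaperones, Psmd5 stood at 7.51, 6.14 and 7.55 FPKM against 7.55 and 8.3 FPKM, Psmd9 at 3.57, 2.56 and 3.19 FPKM against 2.58 and 3.05 FPKM, and Psmd10 at 14, 13.7 and 14.8 FPKM against 12.1 and 11 FPKM. Their log2 fold changes were -0.15, 0.10 and 0.27 (adjusted p = 0.59, 0.71 and 0.38 in limma), and only Psmd10 was without overlap.

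**Figure D2:**
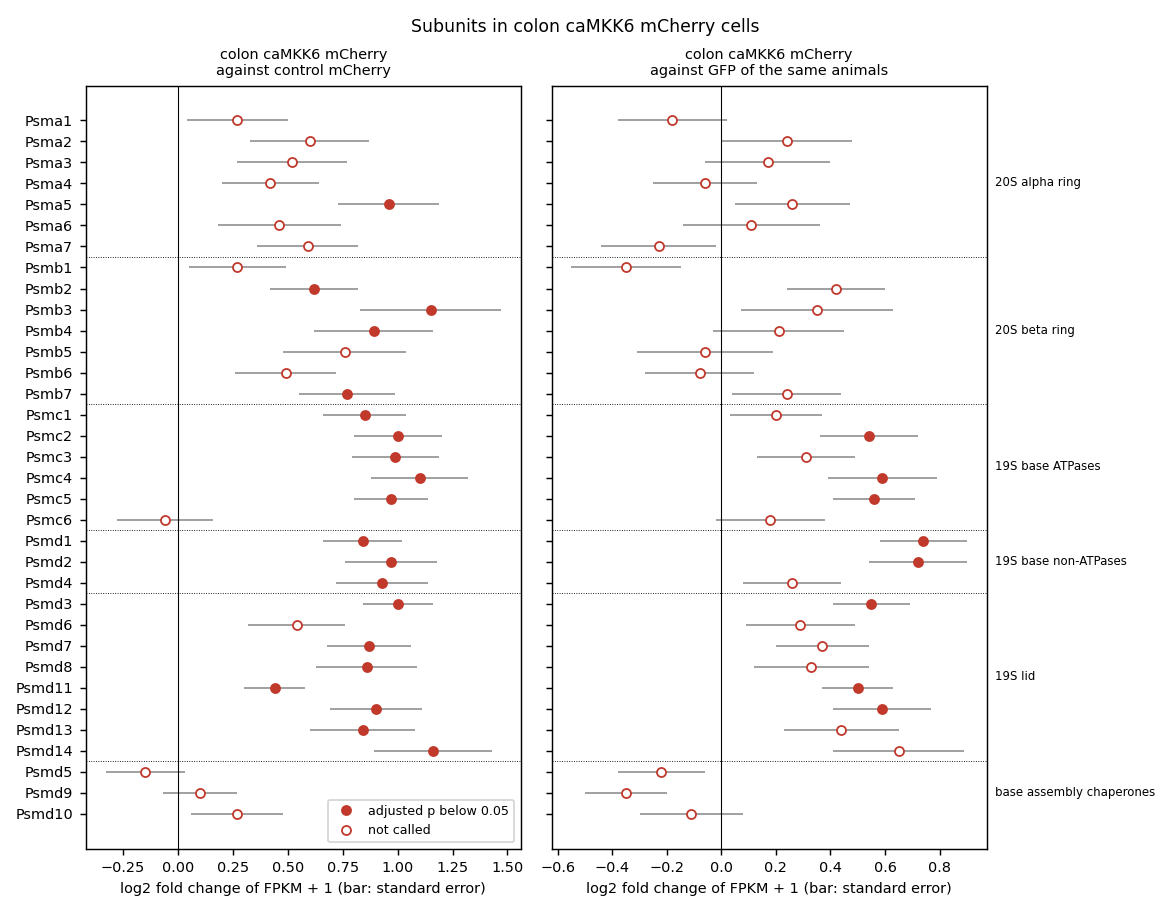
Log2 fold change of FPKM + 1 with its standard error (horizontal axis) for each of the 34 genes by role (vertical axis) in colon caMKK6 mCherry cells, against control mCherry cells (left) and against GFP cells of the same animals (right); filled points have adjusted p below 0.05. On the left most 19S genes lie near 0.90 with Psmc6 at -0.06, and on the right the 8 filled points all belong to the 19S particle.

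Epithelial markers summed to 6142 to 8791 FPKM in caMKK6 mCherry cells and 5854 to 8864 FPKM in control mCherry cells, so these ranges overlapped. Of the 6 epithelial markers (Epcam, Krt8, Krt20, Car1, Slc26a3 and Muc2) 0 were called between these groups, with log2 fold changes from -0.31 to 0.27. Summed markers of dividing cells were 32.6 to 106 FPKM against 82.3 to 158 FPKM, and the macrophage sum was 1.65 to 5.40 FPKM against 0.627 to 0.997 FPKM, with Cd68 higher. Their part in the result was not tested.

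GFP cells of the same 3 animals served as a second comparator. Epithelial markers summed to 3654 to 5384 FPKM in these GFP cells, below the 6142 to 8791 FPKM of the mCherry cells without overlap. The part of this difference in the result was not tested. The main fit compared group means and left the pairing by animal out. Of the 34 genes 8 rose and 0 fell in caMKK6 mCherry against GFP cells (8.24% of all genes rose and 13.1% fell), with a median log2 fold change of 0.26 against -0.04. All 8 belong to the 19S particle: Psmc2, Psmc4, Psmc5, Psmd1, Psmd2, Psmd3, Psmd11 and Psmd12, with changes of 0.50 to 0.74. The 14 core genes had a median of 0.14. With the animal as a replicate block, 12 rose and 2 fell (17.6% and 24% of all genes).

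Psmd1 stood at 31.7, 24.2 and 33.3 FPKM in mCherry cells and at 19.9, 14.3 and 18.0 FPKM in the GFP cells of the same 3 animals. Each animal was higher in mCherry cells and the groups did not overlap (0.74 ± 0.16, SE, adjusted p = 0.0041 in limma). Psmd2 stood at 86.2, 69.4 and 79.5 FPKM against 50.9, 43.2 and 47.0 FPKM, and rose by 0.72 ± 0.18 (SE, adjusted p = 0.0097 in limma). Both genes encode the large scaffold subunits of the base. Psmd11 stood at 28.2, 24.3 and 29.4 FPKM against 18.5, 17.6 and 20.8 FPKM, again higher in each animal. Psmc4 rose by 0.59 ± 0.20 (SE, adjusted p = 0.039 in limma), but its 72.0 FPKM in the GFP cells of animal 4 lay above the mCherry cells of the other 2 animals.

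Animal 4 stood apart. Its GFP cells summed to 2030 FPKM over the 34 genes, 101% of its mCherry cells, whereas in animals 10 and 11 the GFP cells held 76.9% and 72.7%. The human MKK6 transgene was at 116 FPKM in those GFP cells (4.37% of the 2648 FPKM in the mCherry cells of that animal) and at 8.5 and 10.6 FPKM in the GFP cells of the others (0.527% and 0.876%). Macrophage markers summed to 20.3 FPKM in the GFP cells of animal 4 and to 0.815 and 1.04 FPKM in those of the others. Their part in the high sum was not tested. In animal 4, 15 of the 34 genes were higher in mCherry cells, against 27 in animal 10 and 29 in animal 11 (51.3%, 41.7% and 45% of all genes). Without both libraries of animal 4, 14 genes rose and 0 fell in mCherry against GFP cells (6.79% and 13.9% of all genes), and 19 rose against control mCherry cells (10.5% of all genes). The count between colours also moved with other single libraries: it was 5 without mCherry replicate 1, 4 without mCherry replicate 3, 3 without GFP replicate 2, 5 (4 higher and 1 lower) without GFP replicate 3 and 20 without GFP replicate 1, which is the library of animal 4.

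**Figure D3:**
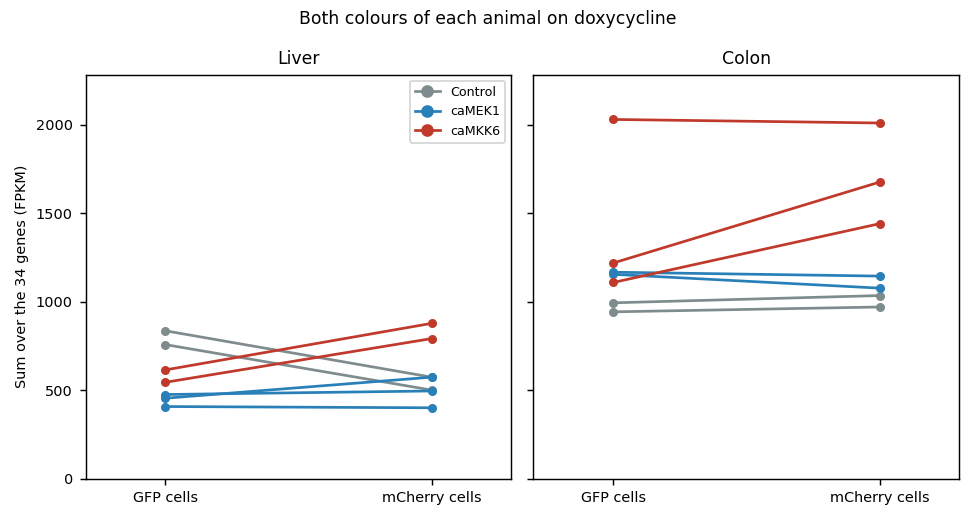
Summed FPKM of the 34 genes (vertical axis, from 0) in GFP and mCherry cells of each animal on doxycycline, joined by a line, for liver (left) and colon (right). In colon, caMKK6 animals 10 and 11 rise from GFP to mCherry cells and animal 4 is high in both (2030 and 2010 FPKM). In liver both control animals fall and both caMKK6 animals rise.

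Colon GFP cells around the caMKK6 cells gave 0 calls among the 34 genes against untreated GFP cells, where 2.6% of all genes were called. In that comparison 9 had an unadjusted p under 0.05, all 9 of them higher (10.5% of all genes higher), and the median log2 fold change was 0.29 against -0.01. Without both libraries of animal 4 the median was 0.02, against 0.02 over all genes. Their sums were 2030, 1109 and 1219 FPKM, and the untreated sums 1093 to 1149 FPKM, so only 2 of the 3 lay above the range and 1 of these was animal 4. In control animals doxycycline gave 0 calls in the GFP cells (0% of all genes called, 0 of the 34 at an unadjusted p under 0.05), and colour gave 0 calls (0.0866% of all genes called, 0 at an unadjusted p under 0.05) with a median of 0.06.

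With active MEK1 in the colon there was 1 call. Psmd4, the ubiquitin receptor of the base, stood at 44.3 and 44.0 FPKM in caMEK1 mCherry cells and at 25.4 and 23.5 FPKM in control mCherry cells, and rose by 0.83 ± 0.23 (SE, adjusted p = 0.014 in limma; 9.54% of all genes rose and 12% fell). The groups did not overlap, but GFP cells of the same animals stood at 42.4 and 37.8 FPKM and untreated caMEK1 GFP cells at 31.3, 32.1 and 26.3 FPKM. Leaving out control mCherry replicate 2 or either caMEK1 mCherry library ended the call. Against untreated caMEK1 GFP cells 0 of the 34 genes were called, where 10.5% of all genes rose and 17.9% fell. The median of the 34 genes was 0.15, against -0.14 over all genes, and a common median moved the share of higher genes among all calls from 44.3% to 57%. Epithelial markers summed to 9356 to 10180 FPKM in caMEK1 mCherry cells, 5854 to 8864 FPKM in control mCherry cells and 4418 to 4856 FPKM in caMEK1 GFP cells. Fibroblast markers summed to 0.588 to 1.15 FPKM in caMEK1 and 3.19 to 4.5 FPKM in control mCherry cells. What part these markers have in the result was not tested. GFP cells of the caMEK1 animals listed the MEK1 transgene at 12.3 and 28.7 FPKM, 4.27% and 12.2% of their mCherry cells. Between colours of these animals 0 genes were called (13.4% of all genes, 42.5% of them higher or 56.7% with a common median, and 0 of the 34 at an unadjusted p under 0.05), and between caMEK1 GFP and untreated GFP cells also 0 (1.33% of all genes, 1 at an unadjusted p under 0.05).

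Between the kinases, 15 of the 34 genes were lower and 0 higher in caMEK1 than in caMKK6 mCherry cells of the colon (12.1% of all genes lower, 8.56% higher), with a median difference of -0.61 against -0.08. The called genes were 2 of the alpha ring, 2 of the beta ring, 4 ATPases, 2 base non-ATPases and 5 lid genes. Psmd14 stood at 26.1 and 29.1 FPKM with caMEK1 against the 41.7 to 66.7 FPKM given above (-0.99 ± 0.27, SE, adjusted p = 0.012 in limma). Psmd1 stood at 14.4 and 15.6 FPKM against 24.2 to 33.3 FPKM (-0.93 ± 0.18, SE, adjusted p = 0.0017 in limma). Psmd2 stood at 40.2 and 43.6 FPKM against 69.4 to 86.2 FPKM (-0.88 ± 0.21, SE, adjusted p = 0.0054 in limma). None of the 3 overlapped. The count was 7 without caMEK1 mCherry replicate 1, 3 without its replicate 2 and 9 without caMKK6 mCherry replicate 3. The comparisons with control mCherry cells share their control libraries, so they are not independent of each other. Epithelial markers summed to 9356 to 10180 FPKM in mCherry cells with caMEK1 and 6142 to 8791 FPKM with caMKK6, without overlap. The part of this difference in the calls between the kinases was not tested.

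In liver, proteasome genes were also higher in caMKK6 than in control mCherry cells, as were genes in general. In caMKK6 mCherry cells 15 of the 34 genes rose and 0 fell, where 28.9% of all 10371 genes rose and 9.29% fell, and the median log2 fold change was 0.43 against 0.25 over all genes. By role, 3 of the 14 core genes, 11 of the 17 19S genes and 1 of the 3 chaperones rose. Scaled to a common median, 3 rose and 1 fell (11.5% and 18.5% of all genes), with a median of 0.09 against -0.08 over all genes. The share of higher genes among all calls moved from 75.7% to 38.4%. Against untreated caMKK6 GFP cells 4 rose and 1 fell (21.6% and 14.3% of all genes). Leaving out control mCherry replicate 1 left 8 calls, its replicate 2 left 4, and caMKK6 mCherry replicate 2 left 7. Summed hepatocyte markers were 24903 to 29810 FPKM in caMKK6 mCherry cells (7.77% to 9.39% of all FPKM) and 38149 to 38284 FPKM in control mCherry cells (10.6% to 10.7%), and Ttr and Cyp2e1 were called lower, 2 of 5. Summed colon epithelial markers, mostly Krt8, were 72.1 to 145 FPKM against 48.4 to 71.4 FPKM, also without overlap, and of these Car1 was called, lower. Their part in the result was not tested.

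Psmd8, a lid subunit (chr7:29174188-29180701, minus strand), had the largest rise, and its promoter above holds none of the motifs. It stood at 84.7 and 66.3 FPKM in caMKK6 mCherry cells and at 20.8 and 17 FPKM in control mCherry cells (1.94 ± 0.32, SE, adjusted p = 3.9e-04 in limma). The GFP cells of those caMKK6 animals stood at 42.2 and 22.1 FPKM, the GFP cells of control animals at 31.9 and 28.8 FPKM, and the caMEK1 mCherry cells at 28.0, 43.1 and 19.4 FPKM. Both caMKK6 mCherry libraries were thus above every other liver library named here. Psmd13, another lid subunit, stood at 18.6 and 17.7 FPKM against 9.29 and 7.71 FPKM (1.01 ± 0.18, SE, adjusted p = 6.9e-04 in limma).

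Psmd9, the base chaperone, was also called (1.28 ± 0.44, SE, adjusted p = 0.029 in limma), yet 1 animal carried the difference. In animal 5 it stood at 13.3 FPKM in mCherry and 13.4 FPKM in GFP cells, and in animal 12 at 4.51 and 2.8 FPKM, against 2.78 and 2.52 FPKM in control mCherry cells. Among the catalytic subunits Psmb5 rose (10.6 and 16.7 FPKM against 7.89 and 6.18 FPKM, log2 fold change 0.85). Psmb6 stood at 23.8 and 38.1 FPKM against 22.0 and 20.3 FPKM, and Psmb7 at 18.3 and 21.8 FPKM against 17.1 and 14.2 FPKM, and neither passed the test.

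Between colours of the caMKK6 liver animals 2 genes rose, Psmd8 (1.27 ± 0.32, SE, adjusted p = 0.034 in limma) and the ATPase gene Psmc5 (0.80 ± 0.21, SE, adjusted p = 0.041 in limma), where 3.99% of all genes rose and 0.289% fell. Psmc5 stood at 34.6 and 48.0 FPKM in mCherry cells against 18.5 and 28.3 FPKM in GFP cells of the same animals. With the animal as a replicate block 21 rose and 0 fell (21.9% and 3.08% of all genes), and with no filter on low values 5 rose. Scaled to a common median 0 were called (1.22% of all genes rose and 0.55% fell), with a median of 0.22 against -0.05 over all genes. The share of higher genes among all calls moved from 93.2% to 69.0%. Without mCherry replicate 1 or GFP replicate 2 the count was 6, and without mCherry replicate 2 it was 0. In both animals GFP cells held less than mCherry cells over the 34 genes (68.8% in animal 5 and 70.1% in animal 12), and 31 of the 34 genes were lower in GFP cells of both, as were 54.2% of all genes.

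In control liver animals the order of the colours was reversed, and the GFP cells compared are those given above that list mCherry at a higher level than EGFP. Their mCherry cells summed to 574 and 501 FPKM and the GFP cells of the same animals to 836 and 758 FPKM, so GFP cells held 146% and 151%. All 34 genes were lower in both mCherry libraries than in both GFP libraries, without overlap (60.9% of all genes), with a median log2 difference of -0.54 against -0.25 over all genes, although 0 were called (0.106% of all genes called). In limma 26 of them had an unadjusted p under 0.05, all 26 lower (18% of all genes), and with the animal as a replicate block 28 fell and 0 rose (18.2% and 0.636% of all genes). Control mCherry cells are the comparator of both kinases in liver. Their hepatocyte markers summed to 38149 to 38284 FPKM, against 34730 to 36074 FPKM in control GFP cells. Macrophage markers summed to 15.9 to 23.5 FPKM against 50.1 to 175 FPKM in GFP cells, fibroblast markers to 6.99 to 7.39 FPKM against 8.68 to 27.5 FPKM and lymphocyte markers to 0.0924 to 0.225 FPKM against 0.443 to 1.14 FPKM, and dividing-cell markers were also lower in both mCherry libraries. None of these ranges overlapped, while endothelial sums did (35.7 to 35.8 FPKM against 34.9 to 59.3 FPKM). Their part in the result was not tested. Doxycycline in GFP cells of control animals gave 0 calls (0.0868% of all genes, 0 of the 34 at an unadjusted p under 0.05) with a median of 0.07.

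The comparison with the most falls was in the GFP cells of livers with active MEK1. In caMEK1 GFP cells on doxycycline 30 of the 34 genes fell and 0 rose against untreated caMEK1 GFP cells, where 32% of all genes fell and 6.46% rose, with a median log2 fold change of -0.74 against -0.25 over all genes. Those not called were Psma7, Psmd8, Psmd9 and Psmd13. The 3 libraries summed to 476, 455 and 408 FPKM over the 34 genes and the 3 untreated ones to 724 to 770.1 FPKM, and in 33 of the 34 genes each library on doxycycline lay below all untreated ones, as in 41% of all genes. Leaving out any 1 library left 28 or 29 calls. Scaled to a common median 18 fell and 0 rose (17.4% and 12.4% of all genes), with a median of -0.51 against -0.02 over all genes. The share of higher genes among all calls moved from 16.8% to 41.8%.

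Psma1, an alpha-ring gene, stood at 9.88, 7.17 and 7.55 FPKM in caMEK1 GFP cells and at 18.3, 19.3 and 17.6 FPKM in untreated ones, with no overlap (-1.09 ± 0.23, SE, adjusted p = 0.0015 in limma). Psmb6, the catalytic subunit with an antioxidant response element core in the window above, stood at 19.1, 18.0 and 14.5 FPKM against 35.2, 40.6 and 34.8 FPKM (-1.06 ± 0.20, SE, adjusted p = 7.7e-04 in limma). Psmd11 stood at 9.6, 10.8 and 8.55 FPKM against 19.9, 20.9 and 19.5 FPKM (-0.99 ± 0.16, SE, adjusted p = 2.2e-04 in limma). Psmb5 and Psmb7 fell as well, from 12.9, 13 and 15.0 FPKM to 8.53, 6.81 and 7.18 FPKM and from 24, 22.5 and 19.2 FPKM to 12.0, 11.5 and 10.2 FPKM. Of the chaperones, Psmd5 and Psmd10 fell and Psmd9 stood at 3.4, 3.38 and 3.65 FPKM against 3.26, 3.89 and 2.8 FPKM.

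Composition moved along with this result. The 5 hepatocyte markers took 19.1% to 23% of all FPKM in caMEK1 GFP cells on doxycycline and 11.9% to 14% in untreated ones, with Alb and Apoa1 higher and Cyp2e1 and Ass1 lower. Summed endothelial markers were 15.8 to 128 FPKM against 14.4 to 27.7 FPKM (Pecam1 called higher, 1 of 4), and summed macrophage markers 20.1 to 246 FPKM against 16.0 to 30.0 FPKM (0 of 5 called). Their part in the result was not tested.

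In caMEK1 mCherry cells, 3 genes fell and 0 rose against control mCherry cells (16.3% of all genes fell and 10.7% rose), with a median of -0.15 against -0.04. These 3 libraries listed MEK1 at 14.1, 5.55 and 8.88 FPKM, mCherry at 12.2, 4.24 and 6.59 FPKM and EGFP at 1.28, 6.81 and 5.82 FPKM, so EGFP exceeded mCherry in replicate 2. The called genes were Psma3 (-0.57 ± 0.12, SE, adjusted p = 0.0015 in limma), Psmd11 (-0.56 ± 0.18, SE, adjusted p = 0.028 in limma) and Psmd2 (-0.50 ± 0.16, SE, adjusted p = 0.025 in limma). Psmd11 stood at 8.88, 11.2 and 7.57 FPKM against 15.2 and 12.7 FPKM. Leaving out either control mCherry library or caMEK1 mCherry replicate 1 left 1 call. Against untreated caMEK1 GFP cells, in place of the control mCherry cells, 25 of the 34 fell and 0 rose (27.5% and 10% of all genes), with a median of -0.60 against -0.15, so the count depended on the comparator. Both colours of these animals were low: mCherry cells summed to 496, 574 and 401 FPKM, and GFP cells held 96%, 79.2% and 102% of that. Between the colours 0 were called (4.71% of all genes, 4 of the 34 at an unadjusted p under 0.05, all 4 higher), and with the animal as a replicate block 4 rose (12.9% of all genes). A common median moved the share of higher genes among all calls from 79.7% to 67.2%.

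Around caMKK6 cells in liver the share of proteasome genes called lower was near that of all genes. Of the 34 genes 4 fell and 0 rose in caMKK6 GFP cells against untreated ones (13.8% of all genes fell and 5.21% rose), with a median of -0.30 against -0.07: Psma1, Psmb3, Psmb7 and Psmd11. At an unadjusted p under 0.05 in limma, 14 of the 34 were lower and 1 higher (23.9% and 11% of all genes). In 13 of the 34 each library on doxycycline lay below all untreated ones, as in 27% of all genes. Psma1 stood at 5.22 and 11.7 FPKM against 18.6, 15.5 and 14.5 FPKM (-0.95 ± 0.25, SE, adjusted p = 0.017 in limma). The count was 0 without untreated replicate 1 or without GFP replicate 1, 1 without untreated replicate 2, 10 without untreated replicate 3 (all lower) and 14 without GFP replicate 2 (13 lower and 1 higher), and 2 when scaled to a common median (27.4% of all calls higher, then 39.6%). Whether the change differs between the kinases was not tested.

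Set against each other, mCherry cells of liver had 24 of the 34 genes lower and 0 higher with caMEK1 than with caMKK6 (27.2% of all genes lower and 4.52% higher), with a median difference of -0.65 against -0.31. All 6 ATPases, all 3 base non-ATPases, 6 lid genes, 4 alpha-ring and 5 beta-ring genes were among them, and no chaperone. Psmd8 (-1.36 ± 0.29, SE, adjusted p = 0.0025 in limma), Psmd11 (-1.11 ± 0.18, SE, adjusted p = 2.6e-04 in limma) and Psmc5 (-1.04 ± 0.20, SE, adjusted p = 9.1e-04 in limma) differed most. Psmc5 stood at 20.8, 20.4 and 16.8 FPKM with caMEK1, below both caMKK6 libraries. Scaled to a common median, 5 were lower and 0 higher (8.07% and 9.37% of all genes), with a median difference of -0.30 against 0.04 over all genes. The share of higher genes among all calls moved from 14.2% to 53.7%. Without caMKK6 mCherry replicate 2 the count was 11. The hepatocyte share of FPKM was 19.3% to 28.9% with caMEK1 and 7.77% to 9.39% with caMKK6.

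**Figure D4:**
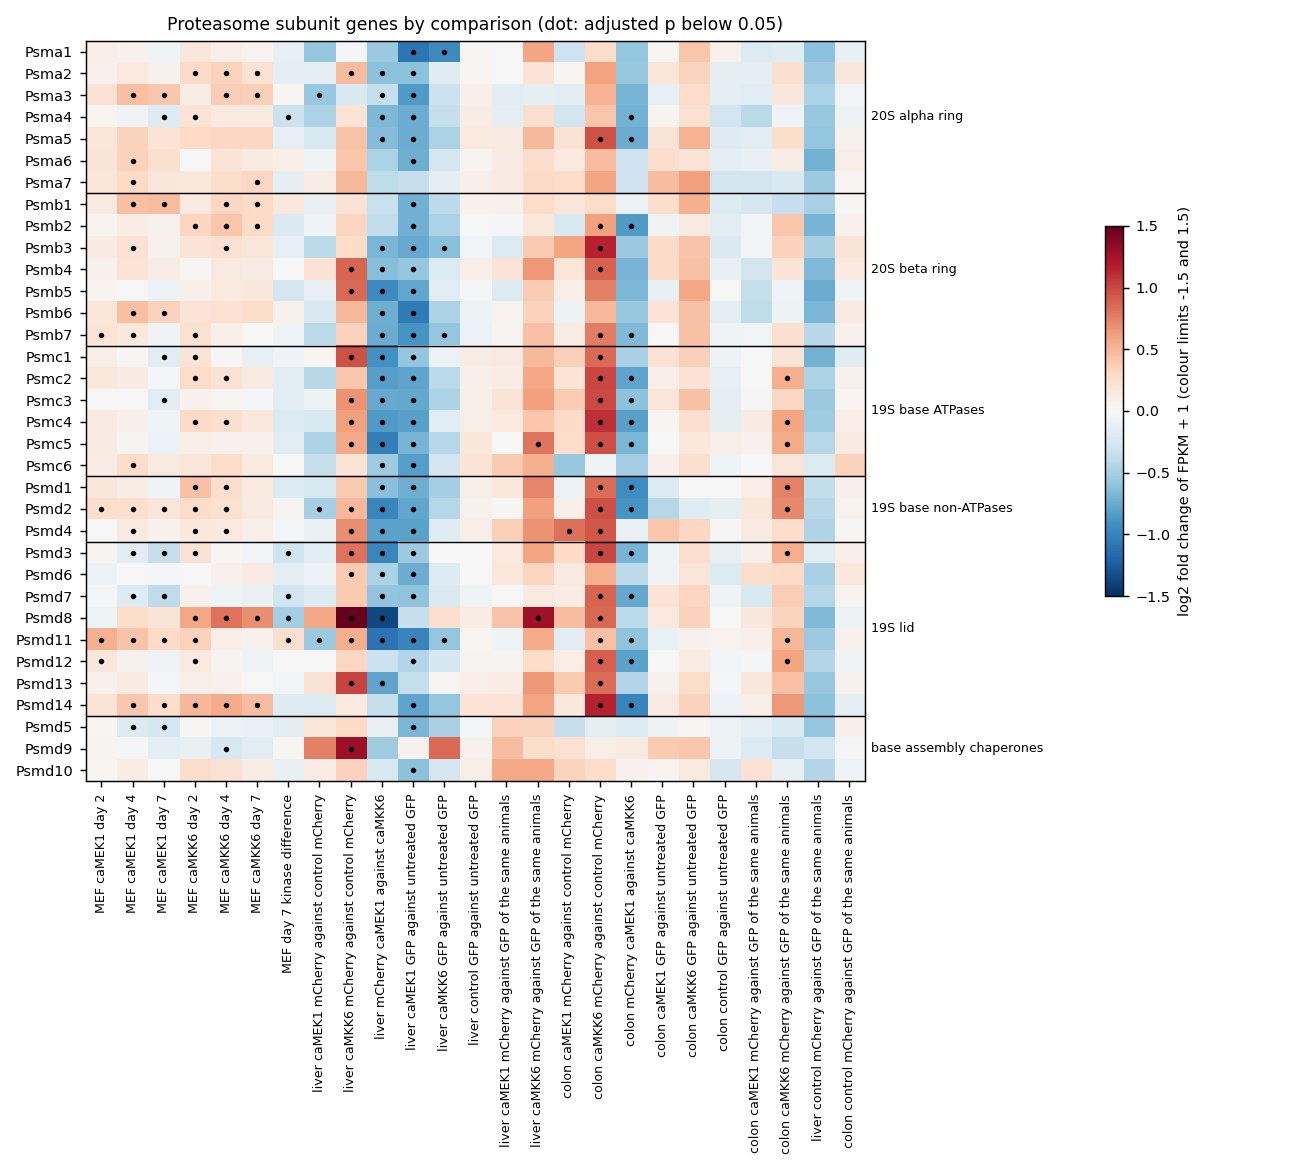
Log2 fold change of FPKM + 1 (colour, limited to -1.5 and 1.5) for the 34 genes by role (vertical axis) in the 25 comparisons (horizontal axis), with a dot where the adjusted p is below 0.05. Colon caMKK6 mCherry cells are red through the 19S genes, liver caMEK1 GFP cells are blue through nearly all genes, and MEF changes are pale. The columns share comparators.

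In cultured fibroblasts the changes were small and mostly upward. With MKK6 at day 2, 15 of the 34 genes rose and 0 fell, where 14.3% of all 11347 genes rose and 24.8% fell, with a median log2 fold change of 0.19 against -0.06 over all genes. At day 4, 12 rose and 1 fell (17.1% and 27.7% of all genes), and at day 7, 7 rose and 0 fell (16.8% and 24% of all genes), with medians of 0.18 and 0.13. The replicate block gave 11 rises at day 7 (21.8% of all genes). Scaled to a common median, 21, 22 and 12 rose at days 2, 4 and 7 and 0 fell (20.4%, 24% and 20.8% of all genes rose), while the share of higher genes among all calls moved from 36.6% to 54.0%, 38.2% to 54.9% and 41.1% to 51.9%. Without the caMKK6 libraries that list the MEK1 transgene above 5 FPKM, the medians were 0.16, 0.27 and 0.23 at days 2, 4 and 7. Over all genes they were -0.10, -0.06 and -0.04. Fewer genes were called at day 2 in that setting, among the 34 as among all genes. Leaving out single libraries gave 5 (untreated replicate 1) and 6 (day 4 replicate 2) calls at day 4, and 2, 4 and 13 (untreated replicates 1, 2 and 3) at day 7.

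Psmd8 and Psmd14 rose at each of the 3 times. Psmd8 stood at 129, 110 and 127 FPKM without doxycycline, at 185, 189 and 173 FPKM at day 2, at 218, 231 and 198 FPKM at day 4 and at 208, 219 and 174 FPKM at day 7. No treated library fell into the untreated range, and the rises were 0.58 ± 0.13, 0.82 ± 0.13 and 0.70 ± 0.13 (SE, adjusted p = 0.0019, 5.6e-05 and 2.6e-04 in limma). Psmd14 stood at 57.1, 61.0 and 71.3 FPKM, then at 82.5, 99.9 and 86.5 FPKM, at 97.9, 96.3 and 85.9 FPKM and at 91.9, 93.5 and 75.7 FPKM. Again each treated library was above all untreated ones, by 0.50 ± 0.10, 0.56 ± 0.10 and 0.46 ± 0.10 (SE, adjusted p = 8.5e-04, 2.1e-04 and 0.0015 in limma). The others that rose at all 3 times were Psma2 (0.22 to 0.33) and Psmb2 (0.29 to 0.42), and 11 of the 15 rises at day 2 were of the 19S particle. The chaperone gene Psmd9 fell at day 4 (-0.24).

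With MEK1 in MEFs 4 genes rose and 0 fell at day 2 (19.5% and 19.8% of all genes), 12 rose and 3 fell at day 4 (28.5% and 29.3%), and 6 rose and 6 fell at day 7 (33.4% and 28.7%). Their medians were 0.11, 0.12 and -0.01, against -0.01, -0.01 and 0.03 over all genes, and at day 7, 17 of the 34 genes lay above 0 and 17 below. The replicate block gave 7 rises at day 2 (23% of all genes). At day 4 the count was 7 (6 higher and 1 lower) without untreated replicate 1 or 2 and 6 (all higher) without day 4 replicate 2, and at day 7 it was 6 (2 higher and 4 lower) without untreated replicate 2.

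Psmd11, a lid subunit whose human counterpart limits proteasome assembly in embryonic stem cells (chr11:80428615-80473248, plus strand), had the largest rise at day 2. It stood at 22.3, 20.1 and 20.3 FPKM without doxycycline and at 30.3, 30.6 and 30.6 FPKM at day 2, an increase of 0.53 ± 0.06 (SE, adjusted p = 2.4e-07 in limma). At day 4 it stood at 29.1, 27.9 and 28.7 FPKM and at day 7 at 26.6, 24.9 and 26.5 FPKM, above each untreated library throughout. Psmd11 fell in the liver of caMEK1 animals, where the groups share neither libraries nor comparators with MEFs. This was not particular to Psmd11, since 30 of the 34 genes fell in caMEK1 GFP cells there. Psmb7 and Psmd2, which also rose in MEFs at day 2, and Psmb6, which rose at day 4, were among the 30. Psmb1, a beta-ring subunit, stood at 47.6, 46.2 and 49.5 FPKM without doxycycline and at 73.9, 65.4 and 59.4 FPKM at day 7 (0.46 ± 0.09, SE, adjusted p = 2e-04 in limma). The catalytic Psmb6 stood at 89.5, 80.1 and 90.8 FPKM, then at 126, 123 and 109 FPKM at day 4 (0.45 ± 0.11, SE, adjusted p = 0.0015 in limma).

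Among the falls at day 7 were 2 lid genes and a base chaperone. The lid gene Psmd7 stood at 129, 119 and 122 FPKM without doxycycline and at 98.4, 88.0 and 96.5 FPKM at day 7 (-0.38 ± 0.07, SE, adjusted p = 1.6e-04 in limma). The lid gene Psmd3 stood at 41.1, 45.6 and 39.6 FPKM and then at 33.0, 33.0 and 32.9 FPKM (-0.34 ± 0.06, SE, adjusted p = 7.5e-05 in limma). The base chaperone Psmd5 went from 16.1, 16.3 and 16.9 FPKM to 13.4, 12.1 and 15.3 FPKM (-0.26 ± 0.08, SE, adjusted p = 0.0063 in limma). None of the 3 overlapped. Within the lid, then, Psmd11 and Psmd14 rose and Psmd3 and Psmd7 fell at day 7 in the same libraries.

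The 7-day change differed between the kinases for 5 of the 34 genes in MEFs, 1 higher and 4 lower with caMEK1 (23.3% and 14.5% of all genes). Psmd8 (-0.51 ± 0.18), Psma4 (-0.32 ± 0.11), Psmd3 (-0.30 ± 0.09) and Psmd7 (-0.29 ± 0.11) were lower with caMEK1 and Psmd11 (0.24 ± 0.08) higher, each as the caMEK1 change minus the caMKK6 change (SE, adjusted p = 0.033, 0.024, 0.0099, 0.038 and 0.023 in that order in limma). For Psmd8, caMEK1 MEFs stood at 107, 127 and 150.5 FPKM without doxycycline and at 131, 143 and 162 FPKM at day 7. These groups overlapped, unlike those of caMKK6 above. Scaled to a common median 0 were higher and 7 lower (16.4% and 21.1% of all genes), and Psmd11 was no longer called. The median difference was then -0.24 against -0.05 over all genes, and the share of higher genes among all calls moved from 61.6% to 43.7%. The count was 1 without untreated caMEK1 replicate 3 or untreated caMKK6 replicate 2, and 2 or 3 without caMEK1 day 7 replicate 2, caMKK6 day 7 replicate 1, untreated caMEK1 replicate 2 or untreated caMKK6 replicate 1.

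**Figure D5:**
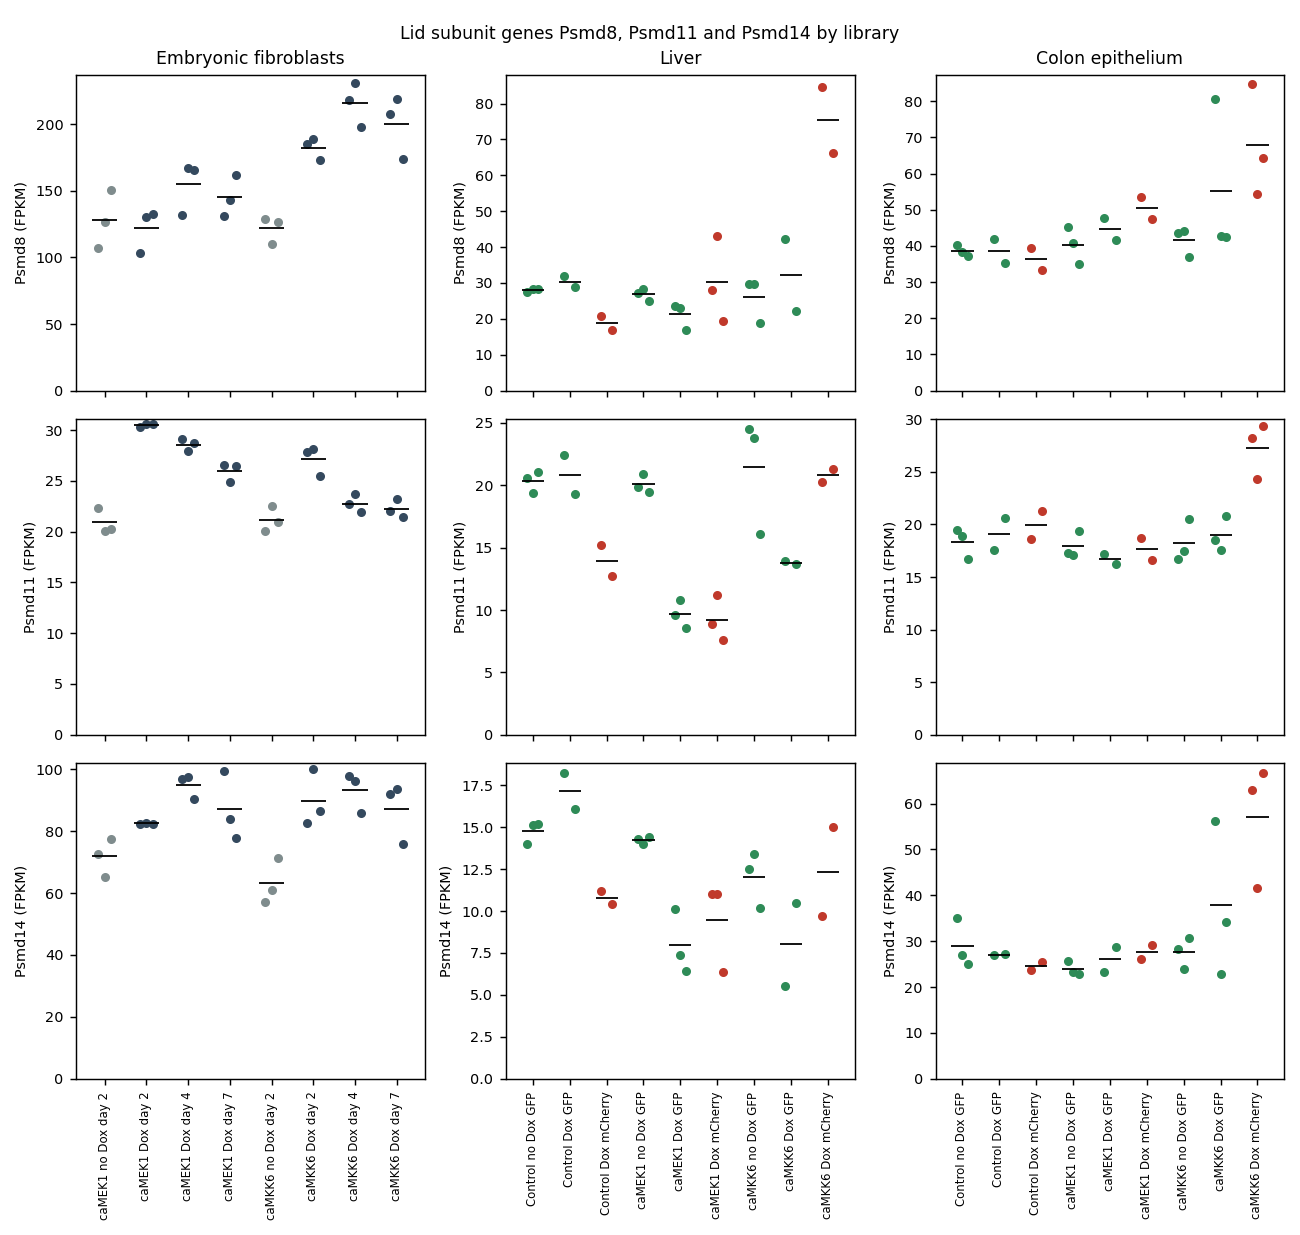
FPKM of the lid genes Psmd8, Psmd11 and Psmd14 (from top to bottom, vertical axes from 0) in each library (points) with group means (lines), in MEFs, liver and colon. Psmd8 is highest in caMKK6 cells of all 3 columns, Psmd11 rises in caMEK1 MEFs and is low in caMEK1 liver on doxycycline, and within the colon Psmd14 reaches its highest levels in caMKK6 mCherry cells (41.7 to 66.7 FPKM), below its levels in treated MEFs.

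Fibroblast markers summed to 922 to 1212 FPKM in untreated caMEK1 MEFs and to 279.9 to 319.9 FPKM at day 2, and markers of dividing cells fell from 203 to 237 FPKM to 34 to 44.1 FPKM at day 7. For caMKK6 the dividing-cell sum went from 213 to 248 FPKM to 63.7 to 82.5 FPKM. Summed macrophage markers were 22 to 40.8 FPKM in untreated caMEK1 MEFs, 23.6 to 46 FPKM at day 2, 51.3 to 112 FPKM at day 4 and 94.9 to 239 FPKM at day 7, with Cd68 and Lyz2 (27.7 and 179 FPKM on average, untreated and day 7) called higher at day 7. With caMKK6 they were 27.6 to 191 FPKM untreated and 82.5 to 349, 86.7 to 434 and 75.7 to 614 FPKM at days 2, 4 and 7, with Cd68 called at day 7. Summed over the 34 genes, caMKK6 MEFs went from 2262 ± 191 FPKM to 2607 ± 176, 2637 ± 69.7 and 2539 ± 142 FPKM at days 2, 4 and 7 (SD, n = 3 each), and caMEK1 MEFs from 2449 ± 80.2 FPKM to 2637 ± 56.7, 2753 ± 90 and 2545 ± 177 FPKM. The part of these markers in the changes was not tested.

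Genes that work with the subunits were counted in lists of the same kind. In colon caMKK6 mCherry cells against control mCherry cells, 1 of the 2 remaining 19S genes rose, the ubiquitin receptor Adrm1, from 8.59 and 8.31 FPKM to 20.7, 17.4 and 18.4 FPKM (1.06 ± 0.17, SE, adjusted p = 3e-04 in limma). Of 14 ubiquitin and delivery genes 5 rose and 0 fell, where 11.1% of all genes rose, among them Vcp, the unfolding ATPase that hands substrates to the proteasome (0.89 ± 0.17, SE, adjusted p = 0.0015 in limma), and the shuttle gene Rad23b (0.93 ± 0.19, SE, adjusted p = 0.0027 in limma). Of 5 core assembly chaperones 1 rose, Pomp, and 0 of 4 genes of transcriptional control passed the test. The immunoproteasome list holds 5 genes: Psmb8, Psmb9 and Psmb10, and Psme1 and Psme2, which encode an activator of the proteasome. Of these, 0 of 5 passed the test. Between colours of the same animals 2 of the 5 genes fell, Psmb9 and Psmb10, where 13.1% of all genes fell. Psmb10 stood at 38.9, 14.3 and 18.0 FPKM in mCherry cells and 79.8, 36.5 and 32.6 FPKM in GFP cells, lower in mCherry cells of each animal (-1.05 ± 0.33, SE, adjusted p = 0.031 in limma). Psmb8, Psmb9 and Psmb10 together made up 13.6% to 24% of the 6 catalytic genes' FPKM in caMKK6 mCherry cells, 27.3% to 35.6% in the GFP cells of these animals and 31.3% to 34.1% in control mCherry cells.

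In liver caMEK1 GFP cells the partner genes fell with the subunits: 12 of 14 ubiquitin and delivery genes and 4 of 5 core assembly chaperones. Of the genes of the immunoproteasome and its activator 4 of 5 fell, and of those of transcriptional control 2 of 4. In these lists 0 were higher, where 32% of all genes fell. In liver caMKK6 mCherry cells against control mCherry cells, 6 of 14 ubiquitin and delivery genes and 2 of 4 genes of transcriptional control rose, where 28.9% of all genes rose, among them Nfe2l2 (1.08 ± 0.32, SE, adjusted p = 0.014 in limma). In caMEK1 MEFs all 4 genes of transcriptional control rose by day 7, with Nfe2l2 at 0.83, Ngly1 at 0.65, Ddi2 at 0.56 and Nfe2l1 at 0.28, while 3 of 5 core assembly chaperones fell (33.4% of all genes rose and 28.7% fell). In caMKK6 MEFs at day 7 it was Nfe2l1 (0.51) and Nfe2l2 (0.31) that rose. In MEFs Psmb10, Psme1 and Psme2 fell at day 2 with caMKK6, and Psme2 with caMEK1 (24.8% and 19.8% of all genes fell). Psmb8 was also called lower with both kinases, but it lay near the filter value of 1 FPKM. It stood at 1.14, 1.01 and 1.25 FPKM in untreated caMEK1 MEFs and at 1.23, 0.774 and 1.21 FPKM in untreated caMKK6 MEFs. It passed the filter mostly through these untreated libraries, so its fall was largely fixed in advance and is not counted. These counts stand beside the proteasome genes as measurements of the same libraries.

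Some of the 34 values carry an uncertainty of counting. Transcripts of 11 genes (Psma2, Psma3, Psma4, Psma5, Psmb3, Psmb5, Psmc1, Psmd1, Psmd2, Psmd11 and Psmd13) match another annotated gene over at least 300 bases at 95% identity or more, mostly processed pseudogenes. Exons of 8 (Psma4, Psma5, Psmb5, Psmb7, Psmc3, Psmd1, Psmd9 and Psmd13) overlap another gene, and whether the counting used strand is not given in the sources used here.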

How the data were processed

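Total RNA of MEFs (100 ng a library) and of sorted liver and colon cells (50 ng) was sequenced. The authors deposited 1 table of FPKM values for 70 libraries. Reads were trimmed with cutadapt 1.12 and aligned with STAR 2 to mm10, per the submitters' processing notes, and the counter, annotation and strandedness are not given in the sources used here. Depths were read from the steps of the values with exon lengths of GENCODE M21: below 1000 reads, 100% came out whole to within 0.02.

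All libraries of a tissue were fitted together on log2(FPKM + 1) in limma 3.58.1 (lmFit and trended eBayes, R 4.3.3). Genes had to reach 1 FPKM in 3 libraries of MEFs or 2 of liver or colon. Adjusted p-values are Benjamini-Hochberg over all genes of the tissue, two-sided, with a threshold of 0.05. No p was adjusted across the 25 comparisons. The fit was tested on simulated data. Rose, fell and called refer to that threshold. MEF replicates are not stated to be separate cultures, so their spread may be technical. Replicate numbers were taken to pair the MEFs, though the labels do not say what a number marks. With group means removed, same-numbered libraries correlated at 0.25 to 0.76 with caMEK1 and 0.11 to 0.80 with caMKK6. Libraries of unlike number were at -0.62 to 0.15 and -0.73 to 0.27, and removing group means lowers these values. Both colours of an animal pair the sorted cells (within-animal correlation 0.502 in liver and 0.474 in colon). The main fit left both pairings out, and only the replicate block used them.

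Members and lists were chosen with earlier results of these data known. Named were the catalytic subunits, the base chaperones, the extremes of level, up to 3 called rises and 3 falls a comparison and up to 4 called genes of other lists; a few others (such as Psmd13, Psmc5 values and list examples) were named after their values were seen. Alternatives were a pseudocount of 0.1, no filter, a common median, a replicate block and each library left out. Added after seeing the data were the comparison of colours in control animals, leaving out caMKK6 MEF libraries with the MEK1 transgene or colon animal 4, and untreated GFP cells as comparator. Promoters are from RefSeq and copies from BLAST 2.17.0. Python 3.11.15, numpy 2.4.6, pandas 2.3.3 and matplotlib 3.10.9 were used.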

Additional observations from a re-analysis of the deposited data

Results flagged for a closer look

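The 7-day change in MEFs differed between the kinases (interaction in limma) for Psmd8 (-0.51), Psma4 (-0.32), Psmd3 (-0.3), Psmd7 (-0.29) and Psmd11 (0.24), given as the log2 change with caMEK1 minus that with caMKK6. The test of caMEK1 against caMKK6 mCherry cells called 24 of the 34 proteasome genes in liver and 15 in colon, all of them lower with caMEK1. Transgene reads stood outside their own cells: mCherry reached 749.6 FPKM in GFP cells of control livers on doxycycline, the MEK1 transgene reached 16.5 FPKM in a caMKK6 MEF library and 28.7 FPKM in GFP cells of caMEK1 colons, and the MKK6 transgene reached 30.9 FPKM in liver and 116 FPKM in colon GFP cells of caMKK6 animals on doxycycline.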

How the results depend on the processing

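No alternative turned the direction of a named gene that was called, and a pseudocount of 0.1 moved no count of calls among the 34 genes by over 1.5 times. The replicate block moved the count to 7 for MEF caMEK1 day 2, 11 for MEF caMKK6 day 7, 4 and 21 between liver colours with caMEK1 and caMKK6, 28 between liver colours in controls and 14 between colon colours with caMKK6, and changed no other count by over 1.5 times. A common median gave 22 and 12 for MEF caMKK6 days 4 and 7, and in liver 4 for caMKK6 mCherry against control, 5 between kinases, 18 and 2 for caMEK1 and caMKK6 GFP cells and 0 between caMKK6 colours. No filter gave 5 for the last of these. Of the settings added after seeing the data, leaving out MEK1-transgene libraries lowered the count for MEF caMKK6 day 2, as it did over all genes. Leaving out colon animal 4 gave 14 between colours, and untreated GFP cells as comparator gave 25 and 5 for liver caMEK1 and caMKK6 mCherry cells and 0 for colon caMEK1 mCherry cells. The cause was not tested.

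Leaving out single libraries gave 3 to 4, 6 to 15 and 6 to 11 calls for MEF caMEK1 days 2, 4 and 7, 10 to 20, 5 to 19 and 2 to 13 for caMKK6, and 1 to 6 for their difference. In liver it gave 1 to 3 and 4 to 12 for caMEK1 and caMKK6 mCherry cells, 11 to 24 between kinases, 28 to 29 and 0 to 14 for their GFP cells, 0 to 2 and 0 to 6 between their colours, and 0 to 0 for control GFP cells. In colon it gave 0 to 1 and 9 to 20 for mCherry cells, 3 to 19 between kinases, 0 to 0 for GFP cells, and 0 to 0 and 3 to 20 between colours. A lone remaining library was taken to vary like the other groups.

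Groups of 2 or 3 libraries limit precision, and reads of low genes such as Psmd10 and Psmd9 add counting error. FPKM gives shares of a library, not amounts per cell.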

Other observations

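In colon caMKK6 mCherry cells, 2 base scaffold genes kept the largest differences from the GFP cells of the same animals among the 34, Psmd1 (0.74) and Psmd2 (0.72), and Vcp, of the ubiquitin and delivery list, differed by 0.91 (102 against 53.7 FPKM). In caMEK1 colon mCherry cells the immunoproteasome gene Psmb8 stood at 2.10 FPKM against 9.09 FPKM in GFP cells of the same animals (-1.74, adjusted p = 0.018 in limma), while 0 of the 34 genes were called there. In caMEK1 MEFs at day 7 Ubb (0.66) and Ubqln2 (0.73) rose and Uchl5 (-0.62) and Usp14 (-0.47), the deubiquitinases that bind the proteasome from outside the lid, fell.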
